A study of Mus musculus with 12 samples.

Results

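The 10 genes described here are the E2F transcription factors E2f1 to E2f8 and the retinoblastoma family genes Rb1 and Rbl1, which stand for 10 of the 18193 genes that the arrays measured. They were chosen by name, and each is represented by its single-gene probe set of highest mean log2 intensity over the 12 arrays. The question was how this family is represented in keratinocyte fractions that differ in epidermal layer and in how long they keep a histone label. All 10 probe sets gave signal: 9 lay above the background floor on all 12 arrays, and E2f7 did so on 8.

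Keratinocytes were sorted by flow cytometry from mouse back skin, and each sorted sample was hybridised to 1 Affymetrix expression array. BL gave 3 LRC and 3 non-LRC samples, SL gave 2 of each class, and GL gave 2 samples that were not divided by label. The abbreviations are read as basal, spinous and granular layer and as label-retaining cell from what is known of the study, since the labels do not spell them out. All 5 fractions, the non-LRC and GL fractions included, came from mice that carry Rosa-tdTomato and K14-CreER together with K5-tTA and pTRE-H2B-GFP. These mice ate food with 1 g/kg doxycycline for 2 weeks, which shuts off new H2B-GFP so that dividing cells dilute the label, and received a single dose of 75 mg/kg tamoxifen. Skin was taken 1 week after tamoxifen, at second telogen, a resting phase of the hair cycle. The keratin 5 promoter limits the H2B-GFP label, and the keratin 14 promoter limits CreER, to cells in which those promoters are active. Sorting gates and the animals' ages are not stated in the labels, which also leave unsaid whether samples came from separate animals. The p-values therefore measure the spread between samples, which may be technical.

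E2F proteins bind DNA mostly as dimers with a DP partner (Tfdp1, Tfdp2) and switch genes of the cell cycle on or off. E2F1, E2F2 and E2F3 are classed as activators of genes for the G1/S transition, E2F4 and E2F5 act mainly as repressors together with the pocket proteins, E2F6 represses without pocket proteins, and E2F7 and E2F8 are atypical repressors that need no DP partner. The pocket proteins RB (Rb1), p107 (Rbl1) and p130 (Rbl2) bind E2Fs and hold their targets down until cyclin-dependent kinases phosphorylate them. In epidermis, cells divide in the basal layer and leave the cell cycle as they move outward, and RB is known to be needed for that exit.

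Several of these genes are themselves E2F targets, so promoter windows are shown for the members in which an E2F motif was found, with the matched letters in capitals. Windows of RefSeq (build GRCm38.p6), from 250 bases before to 50 after an annotated start, were listed for 7 of the 10 members, and E2f4, E2f5 and Rb1 had no entry. The motif searched was TTTCGCGC, TTTGGCGC, TTTCCCGC or TTTGCCGC on either strand. It occurred in a window of 4 of these 7 members, while 2.6% of the 27025 genes in the table hold it in any window. The Rbl1 window (chr2:157204485-157204784, minus strand) holds TTTCGCGC at position −18 from the start, and the E2f7 window (chr10:110745189-110745488, plus strand) holds TTTCCCGC on the opposite strand at position −198. The E2f3 window (chr13:29986014-29986313, minus strand) holds TTTCCCGC on the opposite strand at position −11, and the E2f2 window (chr4:136172024-136172323, plus strand) holds TTTGGCGC at position 39.
Rbl1 promoter: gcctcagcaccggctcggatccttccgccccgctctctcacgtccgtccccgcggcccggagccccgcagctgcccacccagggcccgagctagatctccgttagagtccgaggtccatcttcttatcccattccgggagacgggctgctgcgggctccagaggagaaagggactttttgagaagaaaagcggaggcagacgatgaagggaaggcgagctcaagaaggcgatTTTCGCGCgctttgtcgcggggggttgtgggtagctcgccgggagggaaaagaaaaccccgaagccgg
E2f7 promoter: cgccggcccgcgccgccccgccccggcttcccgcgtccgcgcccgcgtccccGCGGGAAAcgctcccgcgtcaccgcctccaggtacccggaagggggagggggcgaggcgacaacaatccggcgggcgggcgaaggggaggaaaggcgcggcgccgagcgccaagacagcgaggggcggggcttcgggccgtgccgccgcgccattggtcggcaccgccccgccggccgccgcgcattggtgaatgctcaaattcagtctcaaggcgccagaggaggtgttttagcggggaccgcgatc
E2f3 promoter 1: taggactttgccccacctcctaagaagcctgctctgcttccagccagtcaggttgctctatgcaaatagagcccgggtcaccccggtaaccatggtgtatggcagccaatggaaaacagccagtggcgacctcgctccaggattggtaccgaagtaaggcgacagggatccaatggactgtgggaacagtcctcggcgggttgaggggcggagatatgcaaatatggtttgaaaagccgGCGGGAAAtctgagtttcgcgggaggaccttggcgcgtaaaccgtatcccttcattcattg
E2f2 promoter 1: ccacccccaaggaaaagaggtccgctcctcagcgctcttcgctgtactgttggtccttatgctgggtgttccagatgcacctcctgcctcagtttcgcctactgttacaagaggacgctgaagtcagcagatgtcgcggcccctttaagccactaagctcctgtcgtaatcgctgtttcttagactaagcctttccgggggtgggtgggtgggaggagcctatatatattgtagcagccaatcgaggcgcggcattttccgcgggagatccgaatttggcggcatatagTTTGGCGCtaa
These 4 windows are printed 5′ to 3′. E2f2 and E2f3 each have another listed start without the motif. The only windows listed for E2f1 and E2f8 belong to starts 466 and 477 bases inside the annotated genes and do not reach the 5′ ends of those genes, so their lack of the motif covers only those letters. A match is a run of letters and not a measured binding site. The motif TTTGAA, the core of the cell-cycle homology region bound by the MuvB subunit LIN54, did not overlap any E2F match and occurred in windows of E2f2, E2f3 and E2f8, while 20.2% of genes hold it.

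Each array's intensities had been scaled to a common trimmed mean, and a probe set was taken as above background where it exceeded the 95th percentile of 27 bacterial control probe sets on that array (22.4 to 42.6 intensity units). Between 68.1% and 78.4% of genes lay above this floor, and replicates of a fraction correlated at r = 0.925 to 0.932 over all genes. The number of arrays limits the precision. The arrays formed 2 sets by the hybridisation control BioB, at 467 to 524 units on BL LRC 1, BL non-LRC 1 and both SL non-LRC arrays, and at 2885 to 3931 units on the other 8. In BL both label classes held the same number of arrays from each set, whereas in SL the sets and the label classes cannot be told apart. Relative to BL, markers mostly followed the layers. In GL, 8 of 9 granular keratinocyte markers were higher and 1 lower, and 5 of 8 basal markers were lower. In SL, 6 of 8 spinous and 6 of 9 granular markers were higher than in BL, and 1 granular marker was lower. Relative to SL, 3 of 9 granular markers were higher in GL and 1 was lower. GL also carried signal of other cell types, since 7 of 8 Langerhans and myeloid markers and 5 of 6 T cell markers were higher there than in BL. The summed intensity of the 8 Langerhans and myeloid markers was 38336 to 69874 in GL, against 5933 to 19757 in SL and 4413 to 7492 in BL. Hair follicle bulge markers were higher in GL than in BL for 6 of 8, sebaceous and infundibular markers for 5 of 10 (1 was lower), melanocyte markers for 3 of 7 and fibroblast markers for 2 of 7. Relative to SL, GL was higher for 7 of 8 Langerhans and myeloid, 5 of 6 T cell, 3 of 8 bulge and 2 of 7 melanocyte markers. Sebaceous and infundibular markers were higher for 1 of 10 and lower for 2 there. The median log2 difference from SL was 3.96 for Langerhans and myeloid markers, 4.07 for T cell markers and 1.88 for granular markers. In SL relative to BL, bulge markers were higher for 4 of 8 and lower for 1, sebaceous and infundibular markers higher for 3 of 10, Langerhans and myeloid markers higher for 1 of 8 and T cell markers lower for 1 of 6. The part of these markers in the differences of GL and SL below was not tested.

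A moderated F test over the 5 fractions, adjusted over all 18193 genes (threshold 0.05), called 4 of the 10 members, against 16.9% of all genes. The members called were E2f1 (adjusted p = 0.000703), E2f3 (0.00701), E2f7 (0.0267) and Rbl1 (0.0284). The others were E2f8 (0.0781), Rb1 (0.124), E2f5 (0.409), E2f2 (0.442), E2f6 (0.84) and E2f4 (0.903). The count was 2 without BL LRC 3. By role, the called genes were 2 activators, 1 atypical repressor and 1 pocket protein, with none among E2f4, E2f5 and E2f6. The plot of intensities by fraction shows the values behind these tests.

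**Figure D1:**
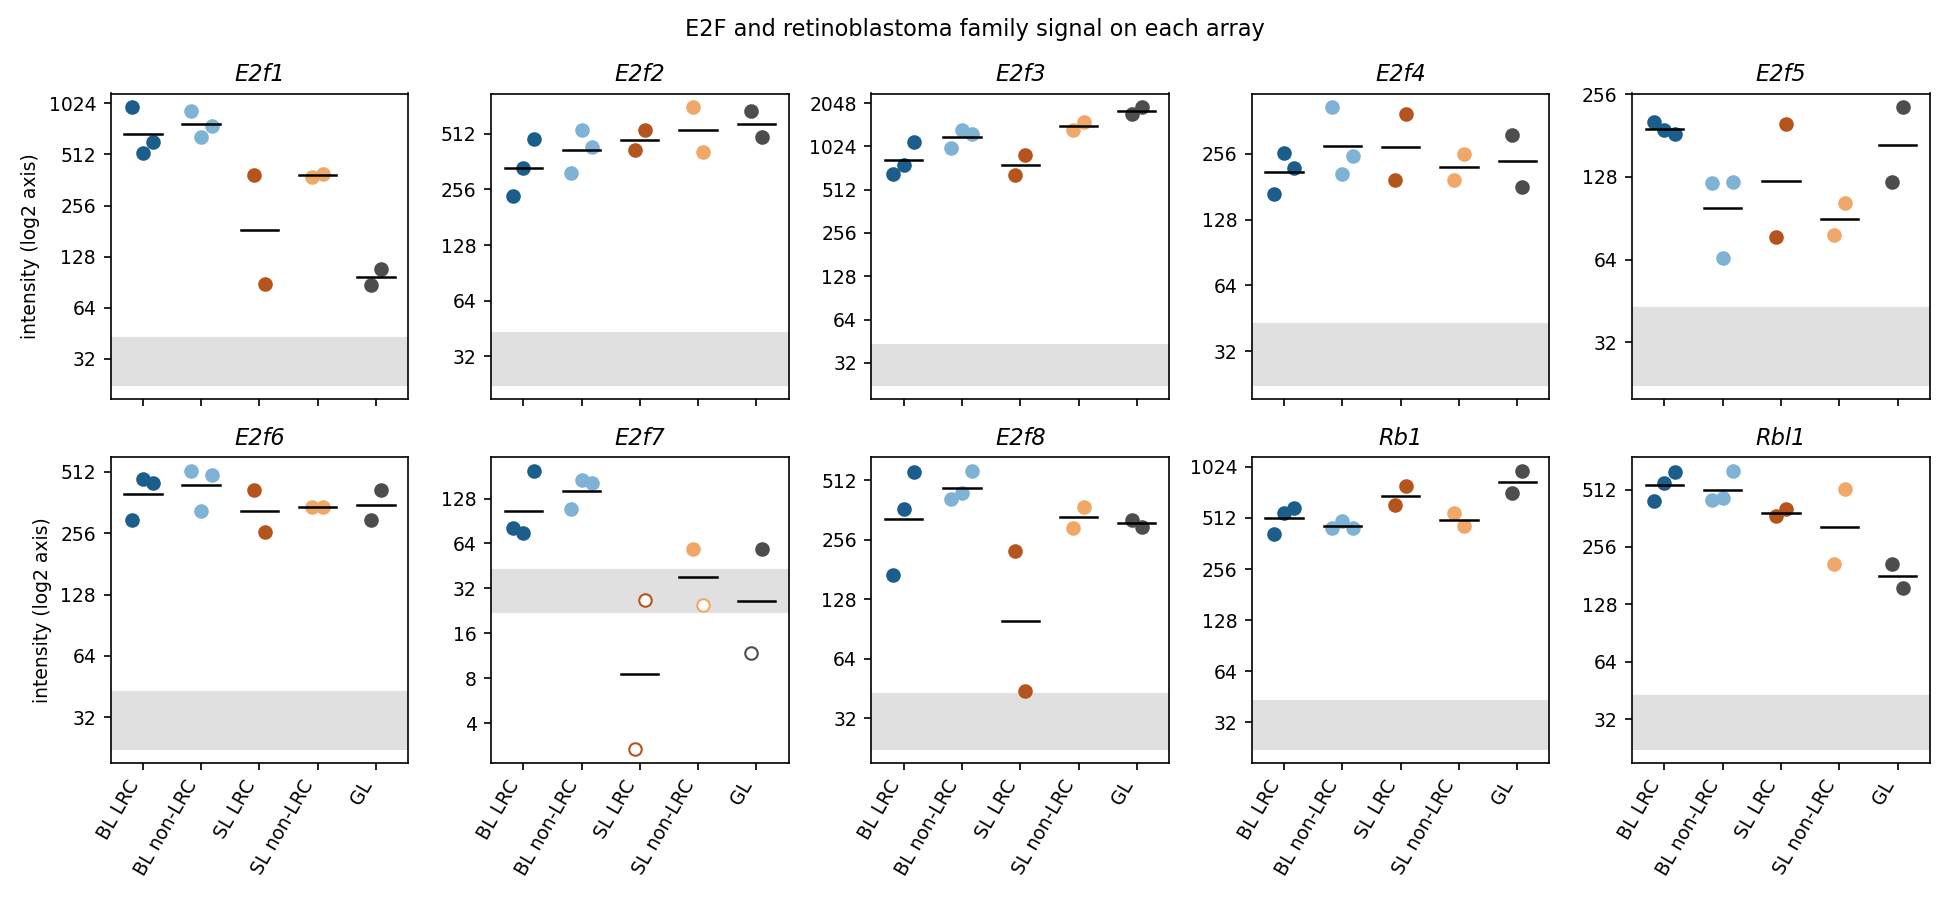
Intensity of the 10 genes on each array (log2 axis, intensity units), 1 panel per gene, with LRC left of non-LRC within BL and SL, and GL last, on the x axis. Points are arrays, open where not above that array's floor, black lines are means of log2 values, and the grey band spans the floors of 22.4 to 42.6 units. E2f1 sits at 525 or above on every BL array and at 87.3 and 108 on the GL arrays, while E2f3 is highest on the GL arrays at 1718 and 1912.

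E2f1 had the largest layer difference of the activators. It had 969.9, 525 and 609 intensity units in BL LRC, against 928, 648 and 758 in BL non-LRC. In SL it had 387 and 88.2 in SL LRC and 379 and 393 in SL non-LRC, and in GL it had 87.3 and 108. Every BL array was above every SL and GL array, and SL LRC 2 was the SL array as low as GL. The log2 means were 9.40 ± 0.46 in BL LRC, against 9.59 ± 0.26 in BL non-LRC (SD, n = 3 each), 7.53 ± 1.51 in SL LRC and 8.59 ± 0.04 in SL non-LRC (n = 2 each), and 6.60 ± 0.21 in GL (n = 2). E2f1 fell in GL relative to BL by 2.90 ± 0.42 on the log2 scale (7.44-fold, SE, adjusted p = 9.9e-05), and in SL relative to BL by 1.43 ± 0.33 (2.70-fold, adjusted p = 0.0154). In these bulk fractions, fewer cells that express a gene and less RNA per cell cannot be told apart.

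The GL difference of E2f1 was called with each of the 12 arrays left out (log2 difference −3.05 to −2.74). The SL difference was not called without SL LRC 2 (log2 difference −0.90, adjusted p = 0.074), without SL non-LRC 1 (−1.42, 0.0676) or without SL non-LRC 2 (−1.45, 0.0521), and on the high-BioB arrays alone SL LRC minus BL LRC was −1.61 (0.223). Between GL and SL, E2f1 differed by −1.46 ± 0.44 (adjusted p = 0.0515), a difference that passed the threshold without SL LRC 2 (−2.00, adjusted p = 0.00169). GL vs BL, GL vs SL and SL vs BL share arrays, so these values do not support one another.

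A second E2f1 probe set, 1431875_a_at, also fell in GL relative to BL (−1.91 ± 0.30, adjusted p = 0.000256 over 34945 probe sets) and in SL relative to BL (−0.93 ± 0.24, adjusted p = 0.0347). The third, 1447840_x_at, had −0.55 ± 0.47 in GL relative to BL (adjusted p = 0.524). The plot of probe sets shows all 3 across the fractions.

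E2f3, another activator, moved the other way. It had 660.3, 763 and 1106 units in BL LRC, against 1000.4, 1330.4 and 1243 in BL non-LRC. In SL it had 647 and 885 in SL LRC and 1337 and 1516 in SL non-LRC, and in GL it had 1718 and 1912. Both GL arrays were above all 10 other arrays, and within each layer the LRC mean was below the non-LRC mean. The log2 mean was 10.82 ± 0.11 in GL (SD, n = 2), against 9.56 ± 0.32 in SL LRC and 10.48 ± 0.13 in SL non-LRC (n = 2 each), and against 9.68 ± 0.38 in BL LRC and, for BL non-LRC, 10.21 ± 0.21 (n = 3 each).

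E2f3 rose in GL relative to BL by 0.88 ± 0.22 (log2, SE, 1.84-fold, adjusted p = 0.00932) and relative to SL by 0.80 ± 0.23 (1.75-fold, adjusted p = 0.0415). SL minus BL was 0.073 ± 0.17 (adjusted p = 0.908). GL was the fraction with the immune, bulge, melanocyte and fibroblast markers given above. Summed sebaceous and infundibular markers were 62287 to 68139 in GL, against 30082 to 34516 in SL LRC and 85124 to 95966 in SL non-LRC. The part of all these markers in this rise was not tested. The difference from BL missed the threshold without GL 1 (adjusted p = 0.0607) or GL 2 (0.109), and the difference from SL missed it with either GL array, any SL array other than SL LRC 2, or BL LRC 2 left out (0.0511 to 0.229). With array set as a term GL minus SL was 0.59 (0.153), and on the high-BioB arrays alone GL minus SL LRC was 1.26 ± 0.25 (0.00669). The other E2f3 probe set, 1434564_at, had 0.64 ± 0.27 in GL relative to BL (adjusted p = 0.132). Relative to SL it had 0.45 ± 0.28 (adjusted p = 0.439), with overlapping ranges. E2f2, the remaining activator, had 676 and 493 units in GL and 236 to 536 in BL, with overlapping ranges and a log2 difference of 0.63 ± 0.32 (adjusted p = 0.218).

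**Figure D2:**
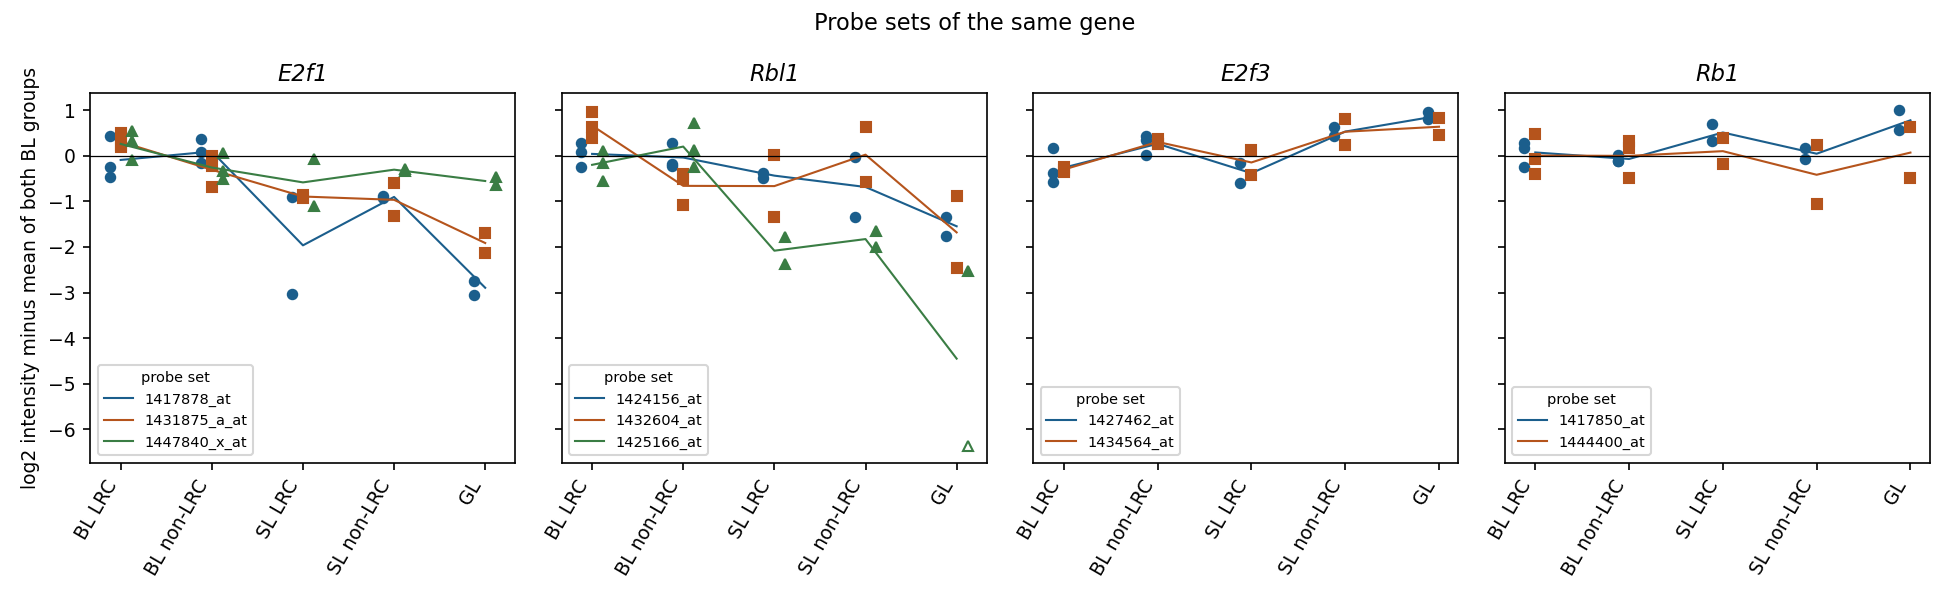
Probe sets of E2f1, Rbl1, E2f3 and Rb1 that were above the floor on at least 1 array, as log2 intensity minus the mean of both BL groups for that probe set, across the 5 fractions. Lines join fraction means and points are arrays, open where not above the floor. The E2f1 sets 1417878_at and 1431875_a_at lie below 0 in GL by 2.90 and 1.91, and the Rb1 set 1444400_at lies at 0.069.

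None of E2f4, E2f5 and E2f6 passed the threshold in any of the 5 pairwise comparisons. E2f4, a partner of all pocket proteins, had 167 to 417 units over all 12 arrays, with a log2 mean of 7.89 ± 0.57 in GL (SD, n = 2). Its BL means were 7.73 ± 0.32 in the LRC and 8.12 ± 0.52 in the non-LRC fraction (n = 3 each). E2f6, which represses within a Polycomb-type complex, had 259.8 to 517 units, and its fraction means spanned 8.36 to 8.78 on the log2 scale. A dimmer E2f6 probe set, 1437914_at, had 28.6, 67 and 54.1 units in BL LRC, 2 of them above the floor, against 2.82, 4.56 and 16.7 in BL non-LRC, none above it. These ranges were apart with LRC higher, whereas the probe set used here had −0.14 ± 0.30. The difference of the dimmer probe set did not pass in limma (adjusted p = 0.208), and no size is given for it because BL non-LRC was at no time above the floor. The differences of E2f4 and of the E2f6 probe set used here were within the spread between arrays.

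E2f5 had separated label classes in BL, with 202, 189.7 and 183 units in BL LRC, against 121, 64.9 and 122 in BL non-LRC. All 3 BL LRC arrays were above all 3 BL non-LRC arrays, but the log2 difference of 0.96 ± 0.47 did not pass (adjusted p = 0.469). In SL it had 77.1 and 199 units in SL LRC and 79 and 102 in SL non-LRC, which overlap. Its probe set is marked as able to detect related transcripts. The next brightest E2f5 probe set, 1417444_at, had a BL difference of 1.31 ± 0.67 (adjusted p = 0.478), with overlapping ranges.

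E2f7, an atypical repressor that is itself an E2F target, was at or near the background floor outside BL. It had 80.8, 74.8 and 196 units in BL LRC, against 109.8, 171 and 162 in BL non-LRC, above the floor on all 6 BL arrays. In SL it had 2.7 and 26.8 units in SL LRC, neither above the floor, and 59 and 24.6 in SL non-LRC, of which 1 was above it. In GL it had 11.8 and 58.6 units, again with 1 of 2 above the floor. All SL and GL arrays lay below all BL arrays. E2f7 fell in SL relative to BL (adjusted p = 0.0202), and with SL arrays that were under the floor set at it the SL mean was 3.25-fold below the BL mean. In SL LRC, which was under the floor on both arrays, E2f7 was at least 2.84-fold lower than in BL LRC. With the GL array under its floor set at it, the GL mean was 3.07-fold below the BL mean, and GL minus BL had an adjusted p of 0.0836. This difference passed without SL LRC 1 (0.0353) or SL LRC 2 (0.0432). The SL call was lost without BL LRC 3 (0.0603), SL LRC 1 (0.115) or SL non-LRC 2 (0.097).

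E2f8, the other atypical repressor, had 169, 367 and 565 units in BL LRC, against 412, 439 and 571 in BL non-LRC. In SL it had 225 and 43.9 in SL LRC and 295 and 376 in SL non-LRC, and in GL 324 and 299. SL LRC 2 was the lowest of all 12 arrays and BL LRC 1 the next, below SL LRC 1, and the GL arrays lay within the BL range. SL minus BL was −1.11 ± 0.40 on the log2 scale (adjusted p = 0.146), and −1.70 without SL LRC 1, where it passed (adjusted p = 0.0126). GL minus BL was −0.33 ± 0.50 (adjusted p = 0.747).

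The pocket protein genes differed in direction between GL and BL. Rbl1 (p107), which is itself E2F-regulated and expressed mostly in cycling cells, had 444, 558 and 637 units in BL LRC, against 452, 461 and 641 in BL non-LRC. It had 372 and 405 in SL LRC, 207 and 515 in SL non-LRC, and 208 and 156 in GL. Both GL arrays were below every BL array, while SL non-LRC 1 was at the GL level. Rbl1 fell in GL relative to BL by 1.55 ± 0.33 (log2, SE, 2.92-fold, adjusted p = 0.00278). This call was lost without GL 2 (−1.34, adjusted p = 0.0597) and held on the high-BioB arrays alone (−1.66, 0.0015). SL minus BL was −0.56 ± 0.26 (adjusted p = 0.292) and GL minus SL −0.99 ± 0.35 (0.0951), the second of which passed without SL non-LRC 1 (−1.31, 0.0182). The probe set 1432604_at also fell in GL relative to BL, with overlapping ranges (−1.68 ± 0.52, adjusted p = 0.0376). So did 1425166_at (adjusted p = 0.000291), for which 1 of 2 GL arrays was above the floor. In BL, 1432604_at had 331, 265 and 223 units in LRC, against 80.8, 129 and 120 in non-LRC. These ranges were apart with LRC higher, without passing (1.32 ± 0.52, adjusted p = 0.317), whereas the probe set used here had 0.08 ± 0.33.

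Rb1, the retinoblastoma gene itself, had 412, 546 and 589 units in BL LRC, against 449, 492 and 445 in BL non-LRC. It had 606 and 786 in SL LRC, 544 and 459 in SL non-LRC, and 714 and 968 in GL. Both GL arrays were above every BL array, and SL LRC 2 lay between them. Rb1 rose in GL relative to BL by 0.78 ± 0.24 (log2, SE, 1.71-fold, adjusted p = 0.0306). This call was lost without GL 1 (0.058), GL 2 (0.317) or BL LRC 1 (0.0547), with array set as a term (0.0632), on the high-BioB arrays alone (0.69, adjusted p = 0.0769) and with arrays centred on their medians (0.0845). The other Rb1 probe set, 1444400_at, had a difference of 0.069 (adjusted p = 0.957). GL minus SL for Rb1 was 0.50 ± 0.25 (adjusted p = 0.273).

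**Figure D3:**
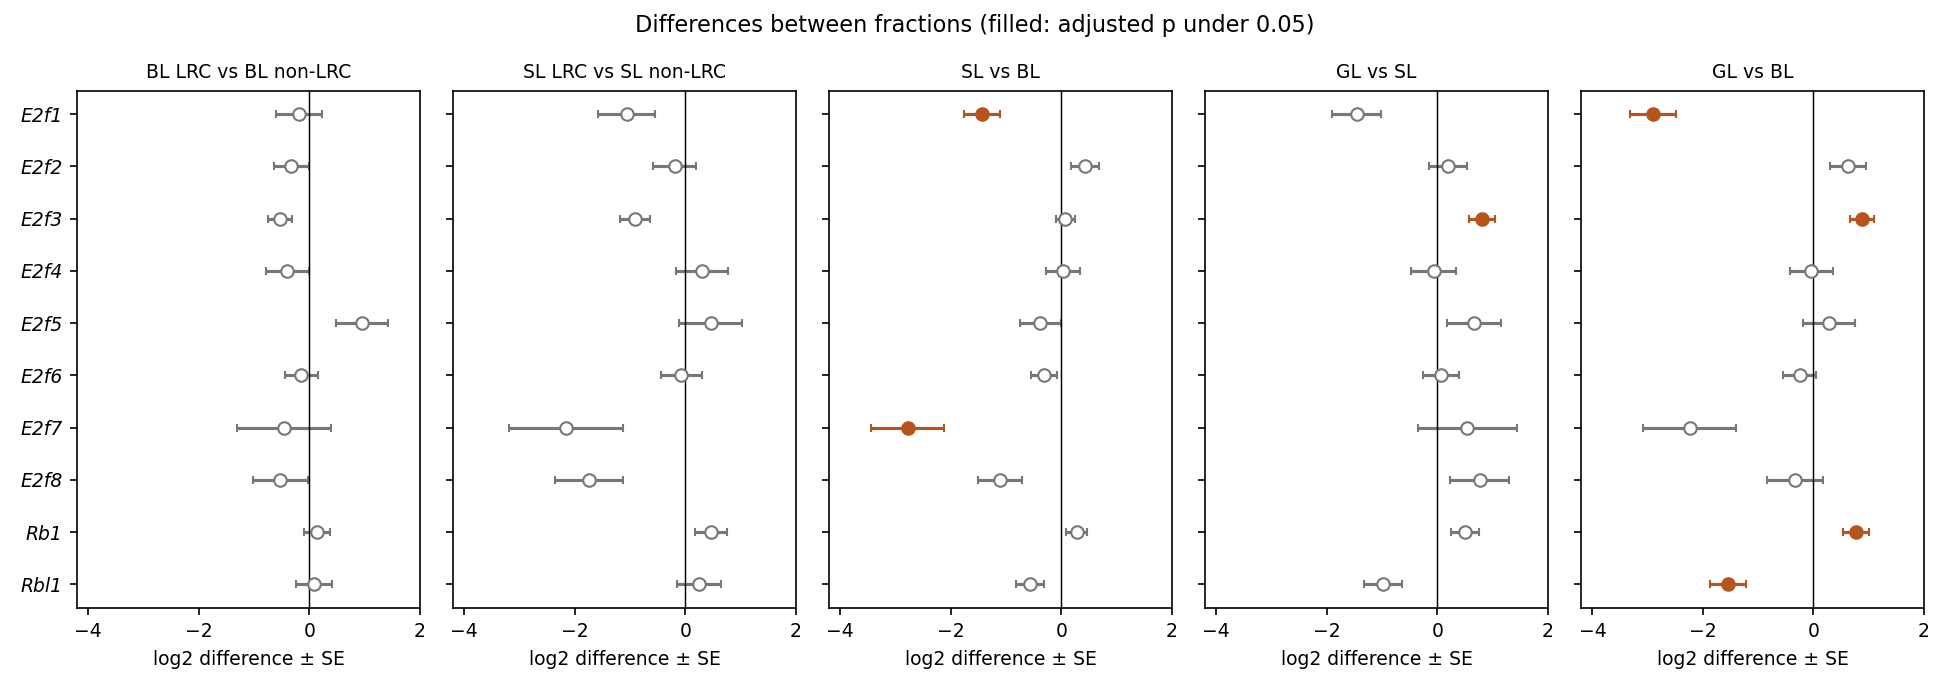
Log2 difference ± SE of the 10 genes in 5 comparisons, each panel giving the first-named fraction minus the other. Filled points have an adjusted p under 0.05. No member is filled in the 2 label comparisons, E2f1 and E2f7 are filled below 0 for SL minus BL, E2f3 above 0 for GL minus SL, and E2f1 and Rbl1 below 0 with E2f3 and Rb1 above 0 for GL minus BL.

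Across layers, SL minus BL called 2 of 10 members, both lower, where 5.03% of all genes were called (2.83% higher and 2.2% lower). GL minus SL called 1, which was higher, against 8.3% of all genes (4.39% higher and 3.91% lower). GL minus BL called 4, with 2 higher and 2 lower, against 17.1% of all genes (8.66% higher and 8.41% lower). The median log2 difference of the 10 members was −0.35 for SL minus BL, 0.35 for GL minus SL and −0.14 for GL minus BL, beside medians over all genes of 0.0025, −0.028 and −0.023.

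No member passed in either label comparison, where 1.53% of all genes were called in BL (0.308% higher and 1.23% lower in LRC) and 4.19% in SL (1.49% higher and 2.7% lower in LRC). At an unadjusted p under 0.05, limma gave 1 member in BL and 2 in SL. E2f3 was lower in LRC in both layers without passing, by −0.52 ± 0.22 in BL (adjusted p = 0.363, ranges overlap) and −0.91 ± 0.27 in SL (adjusted p = 0.0671, ranges apart). Its second probe set gave −0.61 ± 0.27 in BL and −0.67 ± 0.33 in SL (adjusted p = 0.387 and 0.316), with ranges apart in both. The SL difference of E2f3 passed with array set as a term (−1.33, adjusted p = 0.0394). In SL, E2f8 was 225 and 43.9 in LRC, against 295 and 376 in non-LRC (−1.75 ± 0.62, adjusted p = 0.137), and passed without SL LRC 1 (−2.92, 0.0202). For E2f1 in SL the value depended on which SL LRC array was kept: −1.06 ± 0.51 over both SL LRC arrays (adjusted p = 0.308), −2.13 without SL LRC 1 (0.026) and 0.0059 without SL LRC 2 (0.997). The test of whether the label difference itself differed between SL and BL called 0% of genes (1291 of 18193 had an unadjusted p under 0.05) and none of the members, with E2f8 at −1.22 ± 0.80 (adjusted p = 0.809) and E2f3 at −0.39 ± 0.35 (0.871).

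Beside these label comparisons, sebaceous and infundibular markers were lower in LRC: 10 of 10 in BL and 9 of 10 in SL. Their summed intensity was 12184 to 15491 in BL LRC, against 35320 to 76848 in BL non-LRC, and 30082 to 34516 in SL LRC, against 85124 to 95966 in SL non-LRC. Bulge markers were lower in LRC for 2 of 8 in BL and for 3 of 8 in SL, where 1 was higher. Langerhans and myeloid markers were lower in LRC for 1 of 8 in BL and 4 of 8 in SL, fibroblast markers for 1 of 7 in BL, and melanocyte markers for 2 of 7 in SL. Spinous keratinocyte markers were higher in LRC for 3 of 8 in BL and 4 of 8 in SL. The part of these markers in the label differences of the members and of the G1/S and G2/M genes was not tested. Pparg, a sebocyte regulator, was not above the floor on any BL LRC array.

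G1/S targets of E2Fs were lower outward from BL. Of 28 measured G1/S targets (replication and nucleotide synthesis genes), 20 fell in SL relative to BL, against 2.2% of all genes. In GL, 12 targets fell relative to SL (3.91% of all genes) and 23 relative to BL (8.41%). None of the targets rose in these comparisons. Their median log2 difference was −1.05, −0.77 and −1.68 in these comparisons, and all 28 values were below 0 for SL minus BL and for GL minus BL. Mcm3, part of the helicase that opens replication origins, had log2 differences of −1.5 ± 0.13 for SL minus BL (adjusted p = 4.66e-06) and −3.23 ± 0.17 for GL minus BL (adjusted p = 2.35e-09). Cdt1, a replication licensing factor, had −1.21 and −3.12 in the same comparisons (adjusted p = 9.82e-05 and 9.33e-09). The count for GL minus SL was 7 without GL 1 or without GL 2. On the high-BioB arrays, where SL is SL LRC alone, 3 of the 28 were called for GL against SL LRC, a fit that differs both in array set and in the SL fraction. With each gene's second probe set where it has several, the G1/S counts were 12 for SL minus BL and 6 for GL minus SL, and without limma's mean-variance trend the GL minus SL count was 7. Of 29 measured G2/M genes bound by the DREAM complex, an assembly of a pocket protein, E2F and MuvB, 2 fell in SL relative to BL (median −0.58), 8 in GL relative to SL (−0.85) and 14 in GL relative to BL (−1.13). The SL minus BL count for G2/M was 5 without SL LRC 1, 4 without GL 1 or GL 2, and 1 without any other array except BL non-LRC 1. The GL minus SL count was 5 without SL LRC 1 or SL non-LRC 1, 4 without GL 2, 2 without the trend, 3 for GL against SL LRC on the high-BioB arrays and 13 with arrays centred on their medians.

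For label retention in BL, 0 of 28 G1/S genes passed in limma (LRC against non-LRC, median 0.023). Of the 29 G2/M genes, 28 had values below 0, with a median of −0.91. Of these, 3 fell: Ube2c (−1.39 ± 0.23, adjusted p = 0.00324), Cdc20 (adjusted p = 0.0351) and Ccnb2 (0.0383), which act in the exit from mitosis or drive entry to it. The count was 1 without any of BL LRC 1, BL LRC 2, BL LRC 3 or BL non-LRC 3, and 0 on the high-BioB arrays alone or without the trend, against 6 with quantile normalization and 5 with the replicate block. In SL, 10 of 28 G1/S genes were lower in LRC (median −0.83), among them Mcm5 (−1.74 ± 0.23, adjusted p = 0.000456) and Cdt1 (−1.28 ± 0.23, 0.00372). Of the G2/M genes in SL, 10 were lower and 1, Ttk, higher (median −1.51), with Mki67 at −2.09 ± 0.25 (adjusted p = 0.000219). Against 10 and 11 calls, the SL counts were 2 for G1/S and 4 for G2/M with array set as a term, and leaving out single SL arrays gave 2 to 6 for G1/S, while for G2/M they were 5 without SL LRC 2 or SL non-LRC 1 and 3 without SL non-LRC 2. Second probe sets gave 2 for G1/S and 6 for G2/M, and the fit without the trend 2 and 3. No gene of either list passed the test of the difference between layers, in which 26 of 28 G1/S values were below 0. Without BL non-LRC 3, or with the replicate block, 1 G1/S gene passed it.

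Upstream of RB are the cyclins and kinases that phosphorylate it and the inhibitors of those kinases. The cyclin and kinase list also holds Cdc25a and Skp2, which are neither cyclins nor kinases. All 12 measured genes of this list had GL minus BL values below 0 (median −0.75). Cdk6, a partner of D cyclins, fell by 1.35 ± 0.17 (adjusted p = 1.92e-05) and Cdc25a by 1.89 ± 0.35 (0.000915). They were among 5 that fell, against 8.41% of all genes. This count was 3 without GL 1 or without GL 2. Ccnd1, cyclin D1, fell by 1.02 ± 0.16 in SL relative to BL (adjusted p = 0.000677). Ccna2 was lower in SL LRC than in SL non-LRC (−1.61 ± 0.41, adjusted p = 0.0333), and passed in 8 of 12 fits with an array left out. Of 7 inhibitors, 2 rose in SL relative to BL, against 2.83% of all genes, and 3 in GL relative to BL, against 8.66%. Cdkn2b (p15, an inhibitor of CDK4 and CDK6) rose by 2.32 ± 0.29 in GL relative to BL (adjusted p = 2.17e-05), and Cdkn1a (p21) by 1.07 ± 0.16 (0.000139). In the SL label comparison Cdkn2b was higher in LRC (1.42 ± 0.35, adjusted p = 0.0298) and Cdkn1b (p27) lower (−0.68 ± 0.17, 0.0313). With array set as a term neither passed. The count was 0 without SL LRC 1 or SL non-LRC 2 and 1 without SL LRC 2 or SL non-LRC 1, and the second Cdkn1b probe set gave 0.017. Cdkn1c was not above the floor on any array.

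Among 10 E2F partners and MuvB subunits, 2 fell in GL relative to BL, where 17.1% of all genes were called (8.41% lower). These 2 were the DP partners Tfdp1, by 0.98 ± 0.15 (adjusted p = 0.000126), and Tfdp2, by 1.12 ± 0.23 (0.00207). Tfdp2 was lost without GL 1 (adjusted p = 0.107) and in its second probe set (0.193). Tfdp1 also fell in GL relative to SL (−0.63 ± 0.15, adjusted p = 0.0167), a call kept in 9 of 12 fits with an array left out. Foxm1 was lower in SL LRC than in SL non-LRC (−2.73 ± 0.68, adjusted p = 0.0299), likewise in 9 of 12 such fits. None of 10 measured E2F6 complex genes passed in any of the 5 comparisons. Of 6 apoptosis genes with E2F sites or E2F regulation, Trp73 (p73) fell by 2.74 ± 0.35 in GL relative to BL (adjusted p = 3.34e-05) and Bcl2l11, which encodes the pro-apoptotic BIM, rose by 1.64 ± 0.25 (0.00014), so this list had no single direction. Trp73 was also lower in SL LRC than in SL non-LRC (−1.64 ± 0.43, adjusted p = 0.0425).

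**Figure D4:**
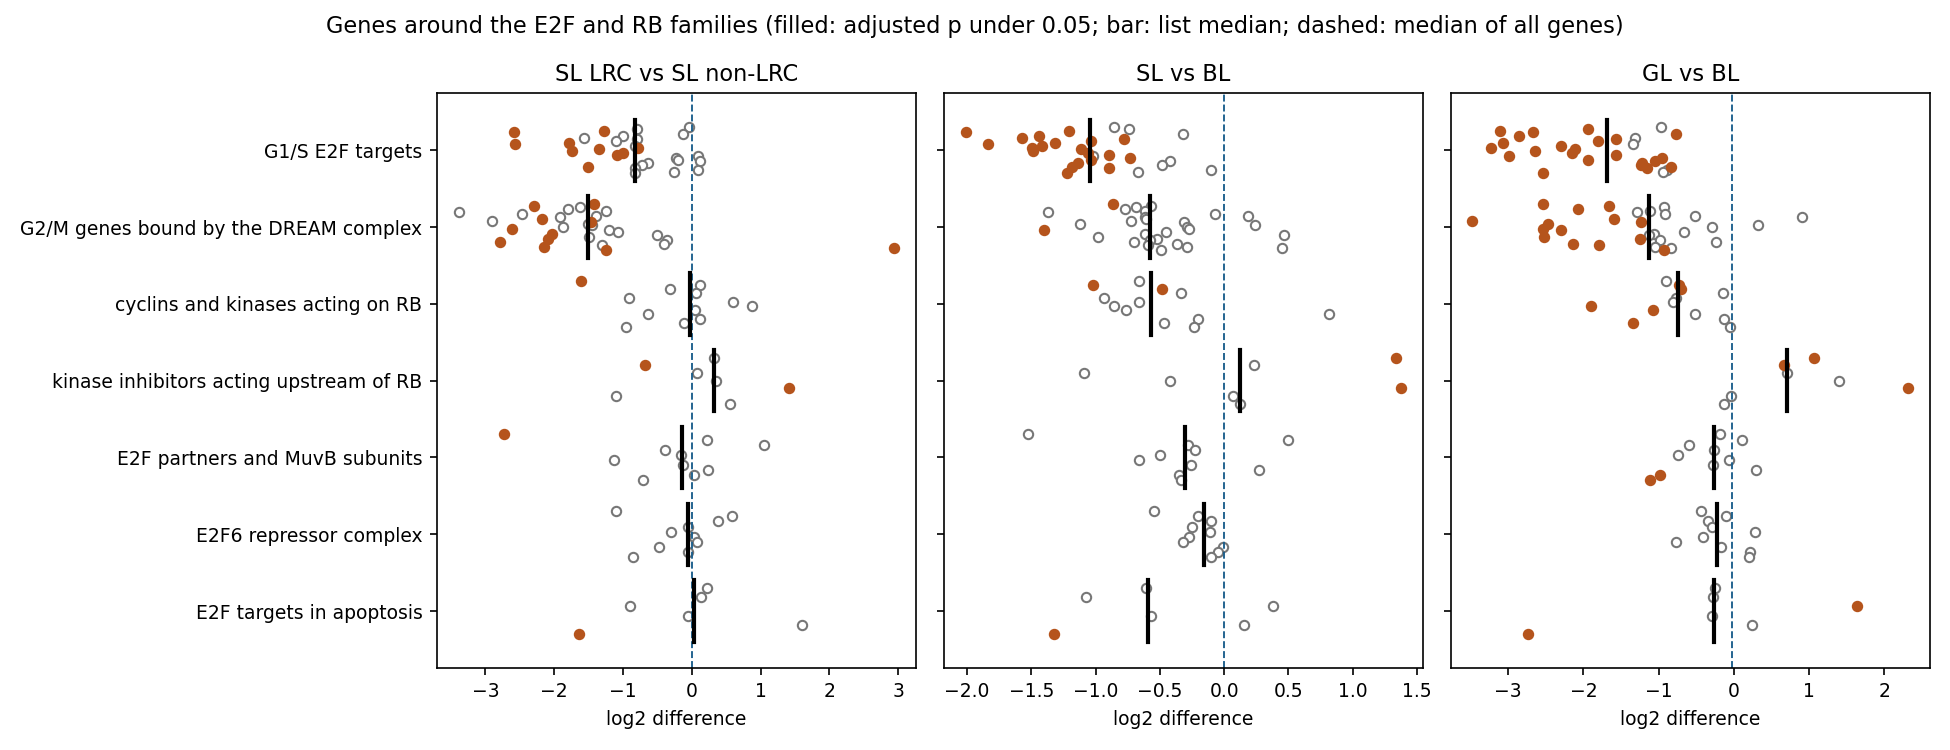
Log2 differences of genes in 7 lists around the E2F and RB families for SL LRC minus SL non-LRC, SL minus BL and GL minus BL. Each point is a gene (filled where the adjusted p was under 0.05), black bars are list medians and the dashed line is the median of all genes. All 28 G1/S targets lie below 0 for SL minus BL and for GL minus BL, with medians of −1.05 and −1.68.

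The genes whose pattern was most like a called member were found by Pearson's r of log2 values over the 12 arrays, among 13613 genes above the floor on at least 6 of them. These arrays share their fractions and array sets, and r is a description only. For E2f1 they were Mcm6 (r = 0.95), Eif5 (0.946) and Gins1 (0.943). For E2f3 they were Bnc2 (0.955), Bgn (0.95) and Txn1 (0.936). For E2f7 they were Pnp (0.947), Ankrd29 (0.921) and Wdhd1 (0.918), and for Rbl1 they were Phtf1 (0.93), Hddc2 (0.923) and 1700017B05Rik (0.921). Among the members themselves, E2f1 and Rb1 had r = −0.89, E2f1 and Rbl1 0.67, and E2f1 and E2f3 −0.43 over the 12 arrays.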

How the data were processed

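Sorted keratinocyte fractions were measured on 12 Affymetrix arrays. Per the labels' protocols, RNA was prepared with RNeasy micro and 5 ng was amplified with NuGEN Ovation Pico WTA and labelled with the Encore Biotin module. The summarisation software is not named in these labels. The deposited values are linear intensity values with a minimum of 1, which have a 2% trimmed mean of 500.0 on every array, and log2 was taken with nothing added. Of 45101 probe sets, 34945 name 1 gene by the platform annotation, and for each of 18193 genes the one of highest mean was used. Symbols were looked up in a RefSeq table of GRCm38.p6 (34754 matched, 0 changed).

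limma 3.58.1 in R 4.3.3 fitted 5 fraction means over 12 arrays with a variance trend on mean signal. The p-values were adjusted by Benjamini-Hochberg across all 18193 genes, with a threshold of 0.05, and the fit was tested on simulated data. A ± beside a log2 difference is limma's moderated SE. Where leaving out an array left a fraction with 1, that array was assumed to vary like the others. A layer is the mean of its label classes. Other probe sets were fitted over all 34945. For E2f7 in SL LRC, which was never above the floor, a bound against the floor is given. For the dimmer E2f6 probe set, never above it in BL non-LRC, no size is given. Alternatives were quantile normalization, centring on array medians, log2(intensity + 32), a filter on dim genes, no variance trend, an array-set term, a replicate block, the second probe set and leaving out each array; high-BioB arrays alone and every other probe set were added after seeing the data.

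The members and gene lists were chosen with earlier results of these data known. Genes of a list were named by smallest p in each comparison, up to 4, and similar genes as the 3 of highest r. Array sets were read from BioB signal after the data were seen. Figures were drawn with matplotlib 3.10.9 from pandas 2.3.3 tables in Python 3.11.15. Replicate numbers were checked for pairing by the correlation of deviations from fraction means.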

Additional observations from a re-analysis of the deposited data

How the results depend on the processing

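Over the reported member results, F tests included, 670 of 748 alternative values were unchanged in side of the threshold and in direction. Of the rest, 54 were no longer past the threshold, 18 were newly past it and 6 reversed. F tests have no direction and cannot reverse, so these counts do not give the share of differences that kept direction. The reversals included E2f1 for BL LRC minus BL non-LRC (−0.19), with 0.61 in its second probe set and 0.52 in 1447840_x_at. For SL LRC minus SL non-LRC, E2f1 had 0.073 in its second probe set and 0.0059 without SL LRC 2 (range −2.13 to 0.0059 over arrays left out). Outside E2f1, the dimmer E2f6 probe set described above was higher in BL LRC, opposite in direction to the E2f6 probe set used. Cdkn1b in the SL label comparison reversed to 0.017 in its second probe set. The cause was not tested. Members called in the F test (4) were 1 without the variance trend, 2 with the replicate block, 2 with second probe sets and 2 to 5 with an array left out. In the SL label comparison (0) they were 1 with the array-set term, 1 with the replicate block and 0 to 2 with an array left out. In SL vs BL (2) they were 0 without the trend, 1 with the block, 0 on high-BioB arrays alone (fitted as SL LRC against BL LRC, so the fractions change too) and 0 to 2 with an array left out. In GL vs SL (1) they were 2 with quantile normalization, centring, the dim-gene filter or the block, 0 without the trend, with the array-set term or with second probe sets, and 0 to 2 with an array left out. In GL vs BL (4) they were 2 without the trend or with second probe sets, and 1 to 5 with an array left out. The BL label and interaction counts were 0 in every alternative. Same-numbered arrays correlated in their deviations at 0.073 to 0.13 in BL (3 pairs), against −0.079 to 0.0019 for differently numbered BL pairs. BL LRC 1 and BL non-LRC 1 also shared the array set of low BioB signal. In SL the value was −0.027, but with 2 arrays per fraction the numbering changes only its sign. Whether same-numbered samples were paired is therefore not known, and the replicate block was not used in the main results. Without the trend the calls over all genes fell to 72, 150, 374, 713 and 2220, against 279, 763, 915, 1510 and 3106 for BL label, SL label, SL vs BL, GL vs SL and GL vs BL, and the array-set term left 320 in the SL label comparison. Centring moved the share of lower calls to 64.8% in GL vs SL, against 47.1%, to 60.9% in GL vs BL, against 49.3%, and to 51.1% in the SL label comparison, against 64.5%. It moved the median of all genes to −0.19, −0.16 and 0.12 in these 3 comparisons. E2f7 sits near the floor, which limits the size of its differences.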
